A study of Mus musculus with 12 samples.

Results

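Crabp2 encodes cellular retinoic acid binding protein 2, and it was measured here in mouse keratinocytes that overexpressed the p63 isoform deltaNp63alpha. It had 1 probe among the 9558 on the arrays and was 1 of 6774 named genes. The gene was chosen by measured values, taken here to be its log2 ratio between deltaNp63alpha and control cells in low calcium, where it was among the 19 rows called by the test over the whole table. A row is a gene or an unnamed probe. Its low calcium values are therefore a description, with no test. The cells were primary skin keratinocytes of C57Bl/6NCr mice, transduced with an adenovirus that encodes deltaNp63alpha, the p63 form without the N-terminal transactivation domain, or with a virus for beta-galactosidase as the control. RNA was taken 41 h after transduction. For the last 24 h the cells stayed in 0.05 mM calcium (low calcium) or were moved to 0.12 mM calcium (high calcium), which was used to start their differentiation. Both groups carried a virus, so no untransduced cells were compared.

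Each of the 12 spotted 2-colour arrays held deltaNp63alpha and beta-galactosidase RNA of 1 calcium level. Each level had 3 repeats, each run on a forward array (deltaNp63alpha in Cy5) and a reversed array (deltaNp63alpha in Cy3), and these 2 arrays formed 1 dye-swap pair and 1 replicate. Since the repeats are named as technical, a p-value may measure technical spread alone. An array compares its own RNAs, so neither the level of Crabp2 nor the effect of calcium itself was measured. An array held values for 3366 to 9096 probes. The well-filled arrays (at least 7869 probes) were those of high calcium repeats 1 and 2 and of low calcium repeat 1, which have the lower experiment numbers in the labels. The other 3 repeats, called sparse here, held values for 3366 to 6974 probes per array, the most on the forward array of low calcium repeat 2.

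All directions below rest on a reading of the dyes. The deposited values are log ratios whose base and numerator are not stated. They were taken as log2, on which every fold rests, and read as Cy5 over Cy3, and the sign of the reversed arrays was turned, so that a value below 0 means less RNA with deltaNp63alpha. This direction is likely and not settled. Its basis is that such ratios commonly put Cy5 first, and that maspin (Serpinb5) is given as negatively regulated in the title of the series. Turned in this way, Serpinb5 was at -0.80 in low and -0.89 in high calcium (limma adjusted p = 0.04998 and 0.0388). A ratio of Cy3 over Cy5 would turn the sign of every value below, with the same sizes. The deposited values of the forward and reversed array of a repeat were positively correlated over all rows (r from 0.120 to 0.712). Read as already turned, Crabp2 would be at 0.62 in low and 0.43 in high calcium, that is, higher with deltaNp63alpha. The Trp63 probe, the check of the transgene, read between -1.71 and 1.90 on 9 arrays, with 1.90 on the reversed array of low calcium repeat 2. Its pair log2 ratios were -0.78 and 0.45 in low calcium (limma adjusted p = 0.919) and -0.59 and -0.51 with high calcium (limma adjusted p = 0.446). In the reading used, overexpression would give values above 0, but only the pair of low calcium repeat 2 was above 0. The transduced gene thus did not bear out the direction, and neither level was called. The labels do not say if its probe reads the viral transcript.

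Retinoic acid, made from vitamin A, enters the nucleus and binds the retinoic acid receptors RAR, which act as pairs with the retinoid X receptors RXR on target genes. Crabp2 carries retinoic acid in the cytosol and hands it to RAR, whereas Fabp5, the epidermal fatty acid binding protein, can hand it to the receptor PPAR delta. In skin, retinoids control keratinocyte proliferation, differentiation and cornification, and CRABP2 is the main cytosolic carrier of retinoic acid in human epidermis, where topical retinoic acid is known to induce it.

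In that reading Crabp2 was lower with deltaNp63alpha on each of the 8 arrays that measured it. In low calcium the turned log2 ratios were -0.93 (forward) and -2.06 (reversed) in repeat 1, -0.19 (forward) and -1.56 (reversed) in repeat 2, and -1.31 on the reversed array of repeat 3. In high calcium they were -1.85 on the reversed array of repeat 1, and -0.87 (forward) and -1.73 (reversed) in repeat 2. The forward arrays of low calcium repeat 3 and high calcium repeat 1 and both arrays of high calcium repeat 3 gave no value. As deposited, the sign of Crabp2 followed the dye: it was negative on the 3 forward arrays and positive on the 5 reversed ones. The lowest value, on the reversed array of low calcium repeat 1, corresponds to a 4.17-fold lower signal, and the highest, on the forward array of low calcium repeat 2, to a 1.14-fold lower signal.

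**Figure D1:**
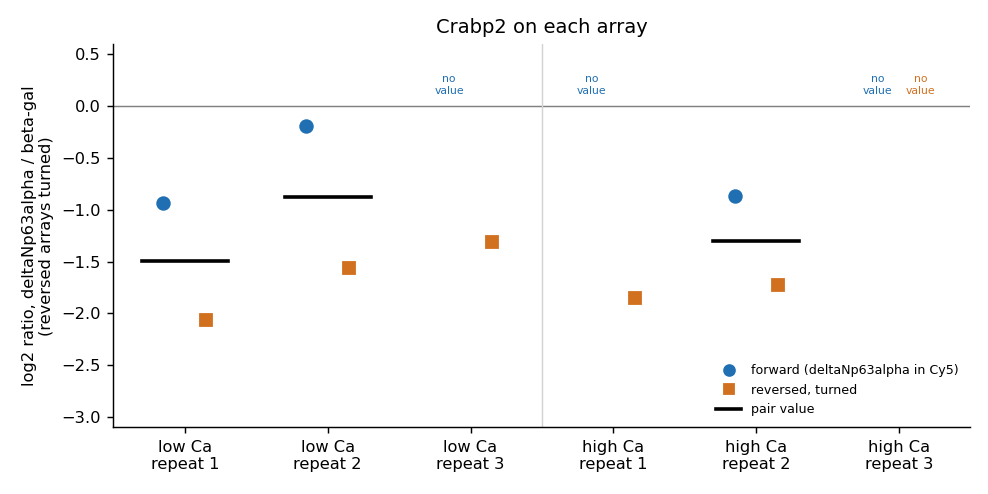
Log2 ratio of Crabp2 (deltaNp63alpha over beta-galactosidase) on each array, by calcium level (Ca) and repeat. Circles are forward arrays, squares are reversed arrays with the sign turned, and bars are pair values; the 8 measured values run from -2.06 to -0.19, and every square lies below every circle.

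Forward and reversed arrays differed in size. The 3 forward arrays averaged -0.66 ± 0.41 (SD) and the 5 reversed arrays -1.70 ± 0.29 (SD), and the groups did not overlap. This is not particular to Crabp2. Every row that kept 1 deposited sign on these 8 arrays separates by orientation after turning, which holds for 445 of 2880 rows (15.5%). Rows that separate without keeping 1 sign, as Crabp2 does, were not counted. In the 3 complete pairs the part shared by both orientations, which is the mean of the deposited values of a pair and does not flip with the dye, was 0.57 (low calcium repeat 1), 0.68 (low calcium repeat 2) and 0.43 (high calcium repeat 2). It exceeded that of all but 2.7%, 16.4% and 3.2% of the rows. This shared part cancels in a pair value but not in the single arrays of low calcium repeat 3 and high calcium repeat 1, both reversed.

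In low calcium the pair values were -1.49 (2.82-fold lower) in repeat 1 and -0.88 (1.83-fold lower) in repeat 2. Their mean was -1.18 ± 0.44 (SD, n = 2 pairs), a 2.27-fold lower signal, and repeat 3 had no pair value. Within its pair, Crabp2 ranked 11 from the lowest of 7893 rows in repeat 1 and 31 from the lowest of 4552 rows in repeat 2. With the deposited signs kept, these pairs were at 0.57 and 0.68, and Crabp2 ranked 211 and 747 from the highest. On forward arrays alone the low calcium mean was -0.56 ± 0.52 (SD, n = 2 arrays), and on reversed arrays alone it was -1.64 ± 0.38 (SD, n = 3 arrays). In bulk RNA, fewer cells that express a gene and less RNA per cell cannot be told apart.

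**Figure D2:**
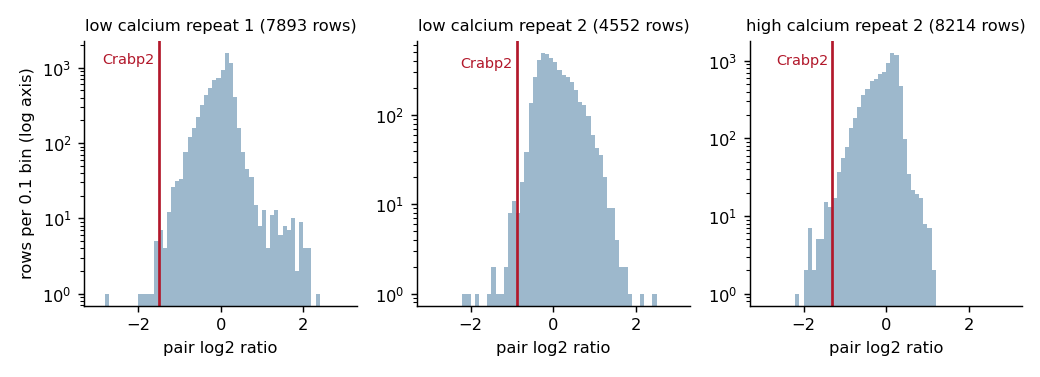
Distribution of pair log2 ratios over all rows in the 3 pairs that measured Crabp2, in bins of 0.1 on a log axis, with values beyond 3 in either direction drawn at the edge. The line marks Crabp2, at -1.49, -0.88 and -1.3, in the lower tail of each.

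The high calcium ratio of Crabp2 is a separate measurement, but the levels share 1 estimate of spread in the fit, and the high calcium values may have been in view when the gene was chosen, so the tests here are not independent evidence. Its only high calcium pair, repeat 2, was at -1.3 (2.46-fold lower) and ranked 50 from the lowest of 8214 rows; with signs kept it was at 0.43 and ranked 261 from the highest. With 1 pair it had no test in the fit of pairs, which called 101 of 7263 rows (1.39%) in high calcium and 19 of 4646 (0.409%) in low calcium. Fits that use the lone reversed array gave a test. With that array kept as the value of repeat 1 the log2 ratio was -1.58 ± 0.24 (SE, n = 2 repeats; limma adjusted p = 0.326), and with the high calcium repeats fitted alone, an alternative chosen after seeing the data, the adjusted p was 0.400 (limma). With each array as a replicate it was -1.49 ± 0.35 (SE, n = 3 arrays; limma adjusted p = 0.330), and on reversed arrays alone it was -1.79 ± 0.28 (SE, n = 2 arrays; limma adjusted p = 0.153). None passed, although all 3 arrays were below 0. In high calcium these 4 fits called 0, 0, 0 and 1 of the rows they tested (555, 748, 436 and 925 at an unadjusted p under 0.05).

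The high minus low calcium difference of Crabp2 was -0.12 from 1 and 2 pairs, -0.35 with single arrays kept, and -0.15 on reversed arrays alone. It was -0.43 with the replicate block and 0.19 with the array set block, so its sign depended on the fit. The low calcium values led to the choice of the gene, so no test or interval is given, and these values do not show that the effects were equal. On the well-filled repeats the 5 array values averaged -1.49 ± 0.55 (SD) and on the sparse repeats the 3 array values averaged -1.02 ± 0.73 (SD), which overlap. All 3 sparse values were of low calcium, so this comparison does not separate the filling of the arrays from the calcium level.

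**Figure D3:**
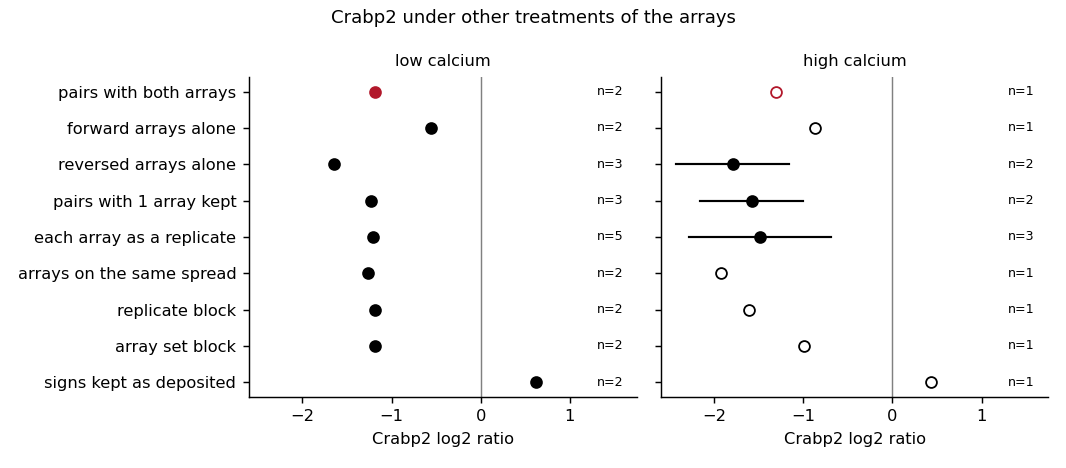
Log2 ratio of Crabp2 in low (left) and high (right) calcium under other treatments of the arrays, with limma's 95% intervals in high calcium where n is at least 2 and open circles where n is 1. The values stay below 0 in every treatment shown but the last, where the deposited signs are kept.

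Few rows moved in 1 direction on every array. Of 2880 rows measured on the same 8 arrays, 30 (1.04%) lay below 0 on each of them after turning, 26 of them named genes, and 20 (0.694%) lay above 0 on each. By contrast 445 rows (15.5%) kept 1 deposited sign on all 8. By mean turned ratio Crabp2, at -1.31, ranked 10 from the lowest of the 2880. Not turned, its mean over these 3 forward and 5 reversed arrays was 0.81, which ranked 13 from the highest. Among the 30 rows only Sprr1a and Lce1m, both of the cornified envelope, Serpinb2, an inhibitor of plasminogen activators, and Cav1, the coat protein of caveolae, had a lower mean (-2.08, -1.41, -1.57 and -1.35). These genes were named after their values were seen.

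Genes with a like pattern were ranked by Pearson correlation of the turned ratios with those of Crabp2 over the 8 arrays, among 2264 named genes (median r = 0.178). The 8 highest were Col9a3 (r = 0.932), Ccl6 (0.924), Ostf1 (0.916), Slc25a17 (0.907), Jag1 (0.906), Serpinb2 (0.904), Wdr12 (0.904) and Enah (0.902). The arrays share dye orientation, and like Crabp2, each of the 8 genes was higher on all 3 forward arrays than on any of the 5 reversed ones. Col9a3, a collagen chain, read 0.33 to 0.59 on the forward arrays and -0.22 to 0.04 on the reversed ones. The part of orientation in the correlations was not tested, so a high r is not read as a like response to deltaNp63alpha. The Col9a3 low and high calcium log2 ratios were 0.12 and 0.11 (limma adjusted p = 0.878 and 0.813). Jag1, a ligand of Notch receptors, was at -0.40 and -0.51 (limma adjusted p = 0.554 and 0.295). Of the 8, Serpinb2 alone was called, at -1.41 in low and -1.57 in high calcium (limma adjusted p = 0.00376 and 0.00667).

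By root mean square difference, a measure added after seeing the data that also weighs size, Serpinb2 was nearest to Crabp2 (0.387 on the log2 scale). It was followed by Bhlhe40 (0.501), a basic helix-loop-helix repressor that retinoic acid is known to induce, Esd (0.511) and Anxa1 (0.529), an annexin. The values were closest on the arrays of high calcium repeat 2, where Serpinb2 read -0.90 (forward) and -1.75 (reversed), beside -0.87 and -1.73 for Crabp2. They were furthest apart on the reversed array of low calcium repeat 3, at -2.13 for Serpinb2 and -1.31 for Crabp2.

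**Figure D4:**
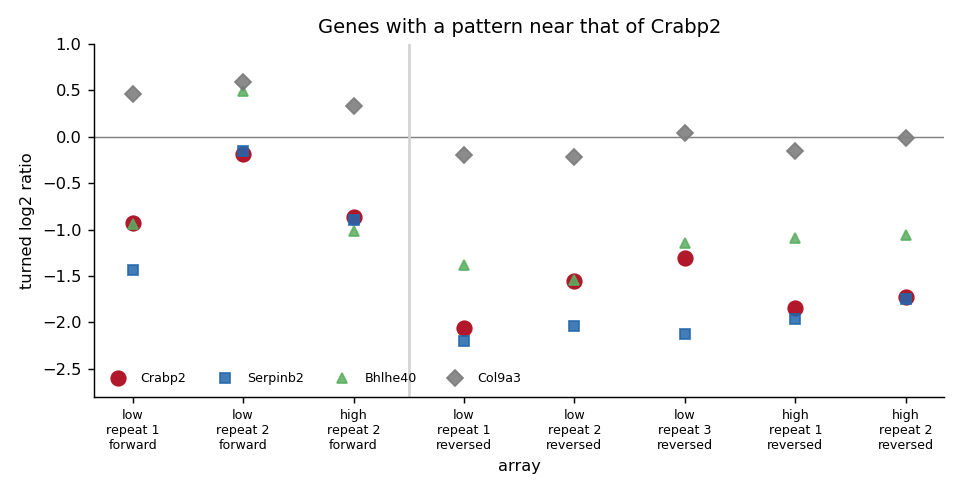
Turned log2 ratios of Crabp2, Serpinb2, Bhlhe40 and Col9a3 on the 8 arrays that measured Crabp2, forward arrays left of the line. Serpinb2 lies near Crabp2 in size, Bhlhe40 rises to 0.49 on the forward array of low calcium repeat 2, and Col9a3 stays between -0.22 and 0.59.

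The other genes of retinoid handling were taken from 6 lists with 119 members, of which 69 were on the arrays. In low calcium 37 were tested and Crabp2, chosen for that call, was the only one called (2.70%, against 0.409% of all rows). Beside it, 0 of 36 were called in either direction. In high calcium 0 of 54 were called (limma; 6 at an unadjusted p under 0.05), against 1.39% of all rows. Over all rows 9.4% in low and 11.6% in high calcium had an unadjusted p under 0.05. With so small a share of all rows called, counts of 0 in lists of this size, here and below, say little about their members. The medians of the tested members were -0.019 in low and -0.025 in high calcium, beside 0.0167 and 0.0054 over all rows tested. Of the 40 members measured on at least 8 arrays, the number that measured Crabp2, it was the only one with the same sign on every array after turning. Of all 2880 rows measured on those 8 arrays, 1.04% lay below 0 on each and 0.694% above 0 on each. Crabp2 was chosen by its values, 5 of its arrays were low calcium arrays, and many other members had more arrays to match. The count is therefore a description and no support. Of members on fewer arrays, Dhrs7 was below 0 on 6 of 6 and Krt19, a keratin, on 5 of 5.

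Of 16 lipid and retinoid binding proteins 11 were on the arrays. Crabp1, the second cytosolic carrier of retinoic acid, read 0.02 in its only low calcium pair and -0.16, -0.25 and 0.48 in high calcium (mean 0.02 ± 0.17 SE; limma adjusted p = 0.969), so its pairs took both signs. Fabp5 read -0.03 and -0.21 in low calcium (mean -0.12 ± 0.19 SE, n = 2 pairs; limma adjusted p = 0.919) and had no pair in high calcium. Fabp4, the fatty acid binding protein of adipocytes, was the next lowest of this list: its pairs were at -0.71, 0.03 and -0.63 in low calcium and at -0.41, -0.57 and -2.32 in high calcium (mean -1.10 ± 0.29 SE; limma adjusted p = 0.0904), where the forward array of repeat 3 alone read -4.07. It passed in high calcium without high calcium repeat 1 or 2 (-1.44 and -1.36; limma adjusted p = 1.48e-05 and 3.69e-05) and with either block (1.28e-05 and 0.0373). Fabp9, carried by sperm, was at 0.25 and 0.19 (limma adjusted p = 0.761 and 0.776). Rbp2, which binds retinol in the gut, and Rbp7, another retinol binding protein, were at -0.38 and -0.36 in high calcium (limma adjusted p = 0.523 and 0.531).

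Among 36 genes of retinoid uptake, storage and metabolism 19 were on the arrays, and 0 of 9 in low and 0 of 16 in high calcium were called (limma; 0 and 4 at an unadjusted p under 0.05). Scarb1, a receptor that takes up lipids and carotenoids, was above 0 in each pair: 0.35 and 0.36 in low calcium and 0.37, 0.44 and 0.25 in high calcium (limma adjusted p = 0.556 and 0.318). Dhrs7, a short-chain dehydrogenase, was at -0.52 and -0.71 in high calcium (limma adjusted p = 0.186). Cyp26a1, which breaks down retinoic acid, was at -0.59 ± 0.23 in high calcium (SE; limma adjusted p = 0.280) from pairs at -1.44, 0.10 and -0.42, and the forward array of repeat 1 alone read -3.09. Without high calcium repeat 2 it passed at -0.93 (limma adjusted p = 0.0277). Aldh1a1, which makes retinoic acid from retinaldehyde, was at 1.29 and 0.06 in high calcium (limma adjusted p = 0.326). Dhrs3, which turns retinaldehyde back to retinol, was at 0.25 and 0.26 in low calcium (limma adjusted p = 0.742), and Lrat, which esterifies retinol for storage, at 0.23 (limma adjusted p = 0.823). Ttr, the plasma carrier of retinol binding protein, was at -0.48 in low calcium (limma adjusted p = 0.536).

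Of 13 nuclear receptors on the arrays 0 of 9 in low and 0 of 10 in high calcium were called (limma; 0 and 0 at an unadjusted p under 0.05). Rara was at -0.02 in low calcium (pairs at -0.03, 0.05 and -0.07; limma adjusted p = 0.988). Rarg, the main retinoic acid receptor of epidermis, was at -0.07 in low and 0.22 in high calcium (limma adjusted p = 0.964 and 0.697), and its pairs took both signs in low calcium. Rxra, the main retinoid X receptor of epidermis, was at 0.07 and -0.08 (limma adjusted p = 0.966 and 0.912), and Rxrb at 0.39 and 0.19 (limma adjusted p = 0.542 and 0.775). Thrb, a thyroid hormone receptor, was at -0.51 in low calcium (limma adjusted p = 0.551), and Ppara, a fatty acid receptor, at -0.36 in high calcium (limma adjusted p = 0.578). Ppard, the partner of Fabp5, was not among the named genes.

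**Figure D5:**
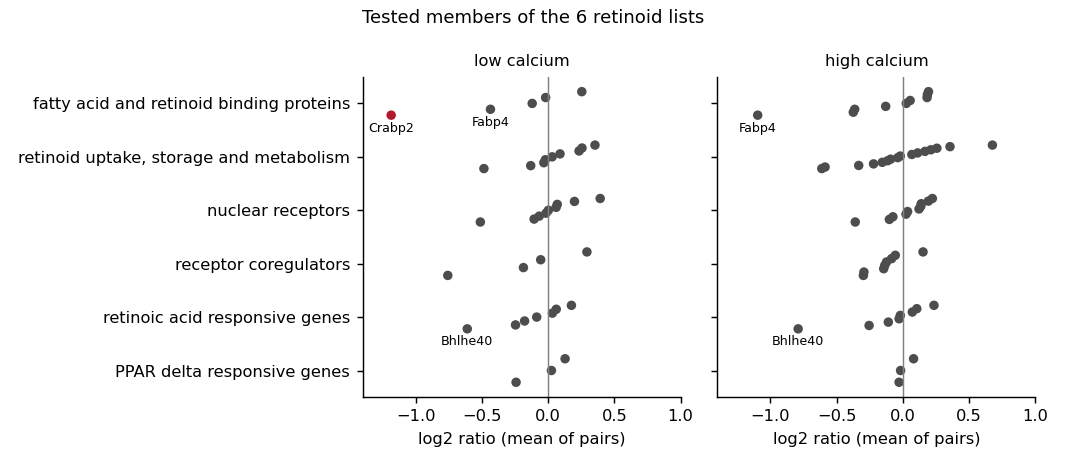
Log2 ratios (mean of pairs) of the tested members of 6 retinoid lists in low (left) and high (right) calcium; points of a list are spread vertically in order of value. In low calcium Crabp2 (-1.18) is the lowest point; in high calcium, where Crabp2 had no test and is not drawn, Fabp4 (-1.10) is.

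Of 12 retinoic acid responsive genes on the arrays 0 of 7 in low and 0 of 8 in high calcium were called (limma; 1 and 1 at an unadjusted p under 0.05). Over all rows 0.409% and 1.39% were called, so 0 among so few genes is no result about them. Among the tested members Bhlhe40 was lowest at both levels. Its pairs were at -1.16, -0.53 and -0.14 in low calcium (mean -0.61 ± 0.21 SE; limma adjusted p = 0.314) and at -1.09, -1.04 and -0.25 in high calcium (mean -0.79 ± 0.21 SE; limma adjusted p = 0.0895). Each of its 6 arrays of the well-filled repeats read between -1.38 and -0.94, while the forward arrays of the sparse repeats read 0.49, 0.86 and 0.95. In high calcium it passed without high calcium repeat 3 (-1.06; limma adjusted p = 0.0314), without low calcium repeat 1 or 3 (0.043 and 0.0388), with 1 level alone (0.0229) and with the replicate or array set block (0.00521 and 0.037). In low calcium it passed on reversed arrays alone (-1.36; limma adjusted p = 0.014) and with the array set block (-0.75; 0.0222). Tgm2, a transglutaminase and a retinoic acid target in many cells, was at -0.25 and -0.26 (limma adjusted p = 0.746 and 0.737). Foxa1, a forkhead factor, was at -0.18 and 0.23 (limma adjusted p = 0.863 and 0.668).

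Of 10 receptor coregulators on the arrays 0 of 4 and 0 of 8 were called (limma; 1 and 0 at an unadjusted p under 0.05), with Ncoa2, a coactivator, at -0.76 in low calcium (limma adjusted p = 0.322) and -0.30 in high calcium. Of 4 PPAR delta responsive genes on the arrays 0 of 3 were called at either level (limma; 0 and 0 at an unadjusted p under 0.05), and Pdk4, a kinase of pyruvate dehydrogenase, was at -0.24 in low and -0.02 with high calcium (limma adjusted p = 0.651 and 0.975).

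Crabp2 is also expressed by fibroblasts, so markers of other skin cells were set beside it. Of 22 markers of fibroblasts, melanocytes, immune cells and endothelium on the arrays, 0 of 16 tested in low and 0 of 18 in high calcium were called (limma; 2 and 0 at an unadjusted p under 0.05). Over all rows 0.409% and 1.39% were called, so 0 among so few markers is no result about them. The fibroblast markers ran from -0.48 to 0.67 (7 markers) in low calcium repeat 1, from -0.24 to 0.16 (5 markers) in low calcium repeat 2 and from -0.68 to 0.25 (7 markers) in high calcium repeat 2, with medians of 0.16, -0.08 and -0.12. Crabp2 was chosen by its values and lay in the lower tail of all rows in these pairs. That it lay below these medians is therefore no result about fibroblasts, whose share was not tested. Of 6 keratinocyte markers on the arrays 0 of 3 in low and 0 of 5 in high calcium were called (limma; 0 and 0 at an unadjusted p under 0.05). Ratios hold no levels, so whether these markers were present was not tested.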

How the data were processed

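The authors deposited 1 log ratio of the dyes per probe and array, taken here as log2. Dye labelling used a sub-Micro kit of Genisphere, per the labels' protocols. The log base is not stated, and the range of the values (-7.88 to 4.60) does not fix it. Array medians lay between -0.0005 and 0.0005. How spots were scanned, filtered, background-corrected and normalised is not given in the sources used here. Precision is limited by the number of arrays.

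In the platform annotation 7457 probes had 1 symbol, 481 several and 1620 were unlisted here. Symbols were updated by gene ID (7368 matched) with a RefSeq table of GRCm38.p6. Each array was centred on its median and probes of a symbol were averaged, giving 6774 genes and 2101 unnamed rows. A pair value was (forward - reversed) / 2 and was missing where 1 array had none. Pairs of both levels were fitted together with limma 3.58.1 (R 4.3.3) and called at a Benjamini-Hochberg adjusted p under 0.05 over rows with at least 2 pairs. Alternatives covered orientation, pairing, scaling, centring, variance model, missing values, probes, blocks and left-out repeats.

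Simulated data were made in 5 sets with the real missing values. Of rows changed by 1 on the log2 scale (50 at each size), 94% were recovered in low and 88% in high calcium. Over 4646 and 7263 rows, 9.04% and 9.38% of calls were false, more than the adjusted threshold allows. Changes were placed only in rows testable in low as well as high calcium. Crabp2, with 1 pair in high calcium, could not be such a row. The rates therefore do not show how often a row like Crabp2 would be recovered.

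Crabp2 and the lists were chosen with earlier results of these data known. Any tested member of the binding protein, metabolism and receptor lists could be named, and of the other lists the called members and those of smallest p. Also named were the 8 genes of highest correlation with Crabp2 and, after their values were seen, the genes of lowest mean ratio and of smallest difference from Crabp2. The neighbours of Crabp2 in the annotation were its 10 nearest genes on each side.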

Additional observations from a re-analysis of the deposited data

How the results depend on the processing

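Of 20 alternatives in low and 19 in high calcium, 9 at each level moved the Crabp2 log2 ratio, and 8 of these 9 gave values below 0 (-1.64 to -0.56 and -1.92 to -0.87). The rest left its value as it was, mostly by construction. The exception at both levels was the reading with deposited signs kept, at 0.62 and 0.43. It moved beyond the SD of the low calcium pairs on forward arrays alone (-0.56, low calcium), on reversed arrays alone (-1.64 and -1.79), and with arrays on the same spread (-1.92 in high calcium, difference -0.65). With 1 repeat left out it lay between -1.49 and -0.88 in low calcium and, with its only pair kept, was -1.3 in high calcium by construction; the difference lay between -0.43 and 0.19. Without low calcium repeat 1 or 2 it had 1 pair left and no test, and without high calcium repeat 2 no high calcium value. The limma adjusted p of Crabp2 in low calcium, which led to its choice, was 0.0461 in the fit of pairs, 0.350 with single arrays kept, 0.448 with each array as a replicate, 0.480 with a trended and robust variance, 0.758 with arrays on the same spread and 0.251 on forward arrays alone. It was 0.014 on reversed arrays alone, 0.00202 with 1 level fitted alone and 0.0273 with probes kept apart (limma). With the replicate and array set blocks, where Crabp2 had no residual degrees of freedom of its own, it was 0.000296 and 0.0146 (limma). These values show how the call that chose the gene moved with the processing and are no tests of Crabp2.

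Rows called in low calcium (19) numbered 763 with signs kept, 33 on forward and 330 on reversed arrays alone, 49 with 1 level alone, 1 with each array as a replicate, and 0 with single arrays kept (also with 1 level alone), arrays on the same spread or a trended and robust variance (limma; 274 to 512 at an unadjusted p under 0.05). In high calcium (101) they numbered 236 with 1 level alone, 26 with all 3 pairs needed, 1 on reversed arrays alone or on the same spread, and 0 with signs kept, forward arrays alone, single arrays kept, each array as a replicate or a trended and robust variance (limma; 436 to 1883 at an unadjusted p under 0.05). Left-out repeats gave 6 to 51 in low calcium, 33 to 151 in high calcium and 0 to 1 for the difference. Retinoid list members called in low calcium (1 of 37, beside 0.409% of all rows) numbered 7 of 37 with signs kept (16.4% of all rows). They were 2 of 51 on forward (0.51%) and 5 of 46 on reversed arrays alone (6.18%), and 2 of 36 with the array set block (1%). The count was 0 in the fits that called 0 or 1 rows or needed all 3 pairs, and 0 to 1 of 23 to 37 with a repeat left out. In high calcium (0 of 54, beside 1.39%) it was 1 of 54 with 1 level alone (3.25%). With the replicate and array set blocks it was 2 (Fabp4 and Bhlhe40) of 54 and 53 (2.89% and 1.85%). With a repeat left out it was 0 to 2 of 21 to 54. Counts so small are no result about the members.

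With the replicate block, 60 rows passed in low calcium, 209 at the high level and 2 for the difference, and Crabp2 was at -1.18 and -1.61. With the array set block 46, 133 and 1 were called, and Crabp2 was at -1.18 and -0.99. Same-numbered repeats of the levels deviated together with r = -0.026, -0.108 and 0.204 over 1381 rows. Differently numbered repeats ran from -0.29 to 0.271, so these values do not show whether same-numbered repeats are linked. In both blocked fits Crabp2 had no residual degrees of freedom of its own.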

Other observations

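None of the tested genes next to Crabp2 in the annotation was called. Over all rows 0.409% in low and 1.39% in high calcium were called, so this is no result about the neighbours. Of the 20 annotated genes nearest to Crabp2, 10 on each side, 7 were on the arrays. Prcc was at 0.08 in low and 0.14 in high calcium (limma adjusted p = 0.928 and 0.776), and Rrnad1 at 0.06 and 0.08 (limma adjusted p = 0.955 and 0.887). Nes, which encodes the intermediate filament protein nestin, was at -0.08 and 0.17 (limma adjusted p = 0.945 and 0.755). In high calcium Insrr was at 0.19, Hdgf, a heparin-binding growth factor, at 0.03 and Gpatch4 at -0.01 (limma adjusted p = 0.780, 0.965 and 0.990). Hapln2 had no pair value.

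Some genes of the retinoid lists kept 1 deposited sign whichever dye the RNA carried, and Ppara and Rarres1 are examples. Of all 2880 rows measured on the 8 arrays of Crabp2, 445 (15.5%) kept 1 deposited sign on those arrays. Ppara was below 0 as deposited on 12 of 12 arrays (-3.07 to -0.08), and Rarres1, a gene named for its response to retinoic acid, on 10 of 10 (-2.92 to -0.75). Both were called with signs kept in low calcium (-2.28 and -1.93; limma adjusted p = 0.00708 and 0.0195), where Crabp2 was at 0.62 and was not called (limma adjusted p = 0.0683). That fit called 763 of 4646 rows (16.4%), so these calls are no result about retinoid genes. Crabp2 was below 0 as deposited on 3 of 8 arrays, the forward ones.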
